A study of Homo sapiens with 4 samples.

Results

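The genes described here encode antiviral restriction factors of the IFITM family, BST2 and RSAD2, measured in the human cell line UM-UC-3, which was established from a urothelial carcinoma. The members were set by name as MX1, MX2, IFITM1, IFITM2, IFITM3, BST2 and RSAD2, and 5 of these 7 were found by symbol among the 13743 genes of the deposited table; MX1 and MX2 were not analysed here. Cap analysis of gene expression (CAGE), which sequences the capped 5' ends of transcripts, was run on 2 samples of a cisplatin-resistant subline induced from UM-UC-3 and on 2 samples of the wild type cells it came from. The resistant subline was kept in medium with 5 µM cisplatin (CDDP), a platinum drug that crosslinks DNA. For the wild type cells no source used here names the medium, so effects of the acquired state and of cisplatin itself cannot be told apart. One subline was compared with its parent, and the labels do not tell whether the numbered samples were separate cultures, so p-values here reflect only how far these samples spread, which may be technical.

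Restriction factors are proteins with which a cell blocks steps of viral infection on its own. Type I and type III interferons raise them through the JAK kinases and a transcription factor complex that contains IRF9 and binds a DNA element called the interferon-stimulated response element (ISRE). The IFITM proteins sit in cell and endosome membranes and hinder the fusion of viral envelopes, BST2 (tetherin) holds budding particles at the cell surface, and RSAD2 (viperin) is a radical SAM enzyme that converts CTP into a chain-terminating analog. The comparison sets cisplatin-resistant cells against the wild type cells for each of these genes.

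The DNA just before the starts of these genes is shown because it carries the ISRE core, and the capitals mark each match to it. The search used the letters GAAANNGAAA on either strand (TTTCNNTTTC on the other), where N is any base, in windows from 250 bases before to 50 bases after the RefSeq start on GRCh38.p14. RefSeq promoter windows were matched by symbol for 4 of the 5 genes, and IFITM2 had no entry. Each line below runs 5' to 3' along the gene's own strand, from 150 bases before the start to 10 bases after it.
IFITM1, chr11:313890-314049, plus strand: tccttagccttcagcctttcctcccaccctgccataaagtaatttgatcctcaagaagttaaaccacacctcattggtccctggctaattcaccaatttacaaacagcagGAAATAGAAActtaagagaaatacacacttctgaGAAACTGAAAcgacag
IFITM3, chr11:320851-321010, minus strand: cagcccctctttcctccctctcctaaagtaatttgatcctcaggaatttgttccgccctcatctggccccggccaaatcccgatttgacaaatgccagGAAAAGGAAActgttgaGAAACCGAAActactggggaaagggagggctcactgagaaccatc
BST2, chr19:17405621-17405780, minus strand: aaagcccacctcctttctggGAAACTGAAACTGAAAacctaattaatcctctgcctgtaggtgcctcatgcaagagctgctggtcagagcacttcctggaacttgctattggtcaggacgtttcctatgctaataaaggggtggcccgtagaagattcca
RSAD2, second RefSeq start, chr2:6877627-6877786, plus strand: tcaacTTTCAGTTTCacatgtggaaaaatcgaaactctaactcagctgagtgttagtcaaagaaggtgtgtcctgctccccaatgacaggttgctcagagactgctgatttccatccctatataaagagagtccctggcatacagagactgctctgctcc

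IFITM1 held 2 matches, one from 40 to 31 bases before the start and one that spans the start itself, from base -6 to base 4. IFITM3 held 2, from 52 to 43 and from 35 to 26 bases before the start. The printed stretches of IFITM1 and IFITM3 were 71.4% identical over 147 aligned base pairs, with 26 gapped positions. BST2 held 2 matches that overlap each other in the run GAAACTGAAACTGAAA, which begins 130 bases before the start. RSAD2 held 1 match on the opposite strand, from base -145 to base -136 relative to its second RefSeq start, and the window of its first start held none. The same core was found in 3.57% of 35116 RefSeq promoter windows of that length, and in 2.84% of the 13611 windows that belong to genes of the table. A second motif, the GAS element (gamma-activated sequence) written TTCNNNGAA, matched once in IFITM1 and at 2 positions in BST2, against 7.66% of all windows; the IFITM1 match and the farther BST2 match each overlap an ISRE core. These matches are descriptions of the sequence, and the deposited values are per gene, so they do not show which start was used.

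**Figure D1:**
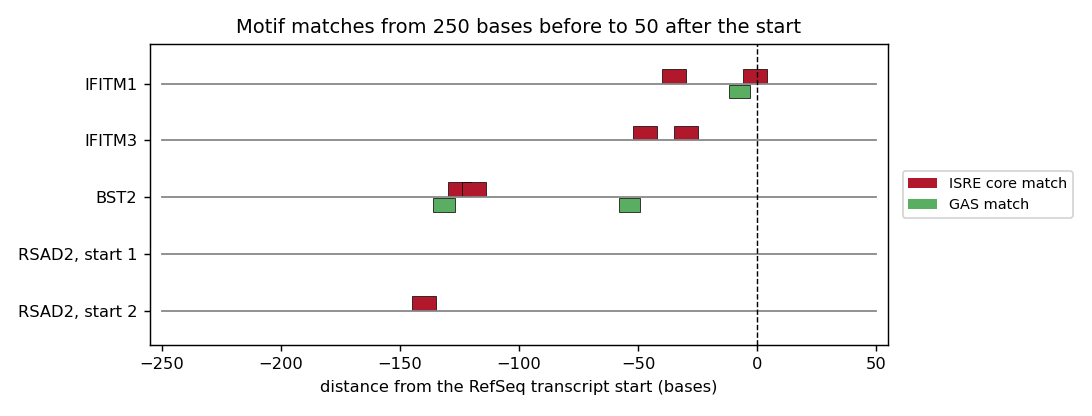
Positions of ISRE core and GAS matches in the RefSeq windows of IFITM1, IFITM3, BST2 and both starts of RSAD2, with distance in bases from the transcript start on the horizontal axis and the start at the dashed line. The IFITM1 and IFITM3 matches lie within 52 bases of the start, and the farthest matches of BST2 and RSAD2 begin at bases -136 and -145.

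All 5 genes were higher in both resistant samples than in both wild type samples, in 2 patterns of level. IFITM3 was well expressed in wild type cells, whereas IFITM1, IFITM2, BST2 and RSAD2 gave 11 reads or fewer over both wild type samples. Values are CPM, read counts scaled to the column's total over the genes listed, and a read was worth between 0.0472 and 0.0562 CPM depending on the sample. The samples held between 17800730 and 21189219 reads. The 12587 genes averaging at least 1 CPM were tested with limma on log2(CPM + 1), with p-values adjusted over all of them by Benjamini-Hochberg; on this scale a fold change understates that of low genes. Of all tested genes 55.2% passed the threshold of 0.05, 33.5% as higher and 21.6% as lower in resistant cells, and the groups did not overlap in 46.1% with resistant cells higher and in 32.3% with resistant cells lower, so a call alone sets no gene apart in this comparison. Under median-ratio scaling the counts were 3486 higher and 3484 lower genes, against 4221 and 2724 with the deposited scaling. IFITM1, BST2 and RSAD2 passed the filter only through the resistant samples, in which they were high. The number of members called, and the p-values and ranks of these genes, are therefore given no weight here. Fewer cells with a transcript and less transcript per cell cannot be told apart in these bulk samples.

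IFITM3 (ENSG00000142089.16), the endosomal member of its family that restricts influenza virus entry, measured 229.88 and 228.42 CPM in the resistant samples, against 119.31 and 119.83 CPM in the wild type samples. The groups did not overlap, at 229 ± 1.03 CPM and 119.6 ± 0.368 CPM (SD, n = 2 each). Both SDs are smaller than counting error alone would give at these read numbers, so they are no measure of reproducibility. By summed reads the ratio was 1.92 (exact Clopper-Pearson 95% interval 1.85 to 1.99, for counting error only). By limma its log2 fold change was 0.93 ± 0.06 (standard error; adjusted p = 1.33e-05), and 5.04% of tested genes had a larger one.

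IFITM1 (ENSG00000185885.16), the family member found mainly at the cell surface, measured 4.67 and 4.83 CPM in the resistant samples, against 0.22 and 0.06 CPM in the wild type samples. These values stand for 99 and 86 reads in the resistant samples and for 4 and 1 reads in the wild type samples. The groups did not overlap, and the wild type level rests on a handful of reads. By summed reads the ratio was 34.5 (exact 95% interval 14.5 to 108). It came to 86.2 (15.3 to 3421) without wild type replicate 1, which leaves 1 wild type read, and 21.6 (8.31 to 80.2) without wild type replicate 2. By limma the log2 fold change was 2.34 ± 0.15 (standard error; adjusted p = 1.21e-05).

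IFITM2 (ENSG00000185201.16), a close paralog of IFITM3 that also acts in endosomes, measured 0.80 and 0.96 CPM in the resistant samples, against 0.27 and 0.17 CPM in the wild type samples. This was 17 reads in each resistant sample, against 5 and 3 reads in the wild type samples. Its mean lay under 1 CPM and it was not tested with the other genes; its ratio of summed reads was 3.97 (exact 95% interval 1.80 to 9.92). When every listed gene was tested, its log2 fold change of 0.62 passed (standard error 0.11; limma, adjusted p = 0.0034).

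BST2 (ENSG00000130303.13) measured 7.60 and 7.30 CPM in the resistant samples, against 0.49 and 0.11 CPM in the wild type samples. The reads were 161 and 130 in the resistant samples, against 9 and 2 in the wild type samples, so the wild type samples differed from each other while both stayed far below the resistant ones. BST2 had a ratio of summed reads of 24.7 (exact 95% interval 13.6 to 50.02). Without wild type replicate 1 it was 67.8 (18.6 to 562) and without wild type replicate 2 it was 15.1 (7.86 to 33.4). By limma BST2 had a log2 fold change of 2.72 ± 0.17 (standard error, adjusted p = 1.08e-05), and 0.191% of tested genes had a larger one. Neither adds support, since BST2 passed the filter only through its resistant samples.

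RSAD2 (ENSG00000134321.12) measured 3.02 and 3.2 CPM in the resistant samples, against 0 and 0.11 CPM in the wild type samples. Its reads were 64 and 57 in the resistant samples and 0 and 2 in the wild type samples, where 3 reads would equal 0.164 and 0.165 CPM. The gene was thus at the detection floor in wild type cells and clearly above it in resistant cells. The ratio of summed reads was 56.5 (exact 95% interval 15.3 to 472). It came to 28.2 (7.63 to 235) without wild type replicate 1. When wild type replicate 1 stood alone, with 0 reads, the exact 95% interval of the ratio started at 15.1. Set against a floor of 3 reads there, the resistant samples were 18.9-fold higher. Its log2 fold change by limma was 1.96 ± 0.15 (standard error; adjusted p = 2.88e-05).

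**Figure D2:**
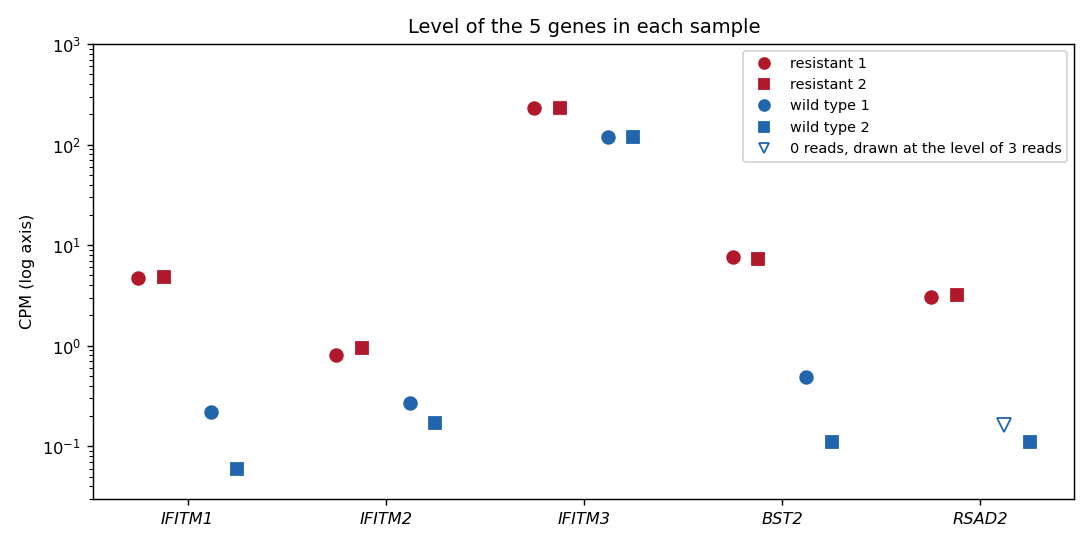
CPM of IFITM1, IFITM2, IFITM3, BST2 and RSAD2 in each sample on a log axis, resistant samples in red left of wild type samples in blue; the open triangle marks RSAD2 with 0 reads in wild type replicate 1, drawn at 3 reads. In each gene both resistant samples lie above both wild type samples, from 229.88 and 228.42 against 119.31 and 119.83 CPM in IFITM3 to 3.02 and 3.2 against 0 and 0.11 CPM in RSAD2.

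The genes of the IFITM family lie side by side on chromosome 11 and changed by unequal amounts. The exact 95% intervals of the read ratios of IFITM1 (14.5 to 108) and IFITM3 (1.85 to 1.99) did not overlap. As a share of the summed CPM of IFITM1, IFITM2 and IFITM3, a ratio within each sample that does not move with scaling, IFITM1 held 1.98% and 2.06% in the resistant samples, against 0.184% and 0.05% in the wild type samples. The exact 95% intervals of these shares ran from 1.62% to 2.41% and from 1.65% to 2.54% in the resistant samples, against 0.0499% to 0.468% and 0.0012% to 0.255% in the wild type samples. IFITM2 held 0.340% and 0.410% in the resistant samples, against 0.225% and 0.142% in the wild type samples, and these intervals overlapped between the groups. IFITM3 held 97.7% and 97.5% in the resistant samples, against 99.6% and 99.8% in the wild type samples. With 2 samples against 2 the exact two-sided permutation test of each share gave p = 0.333, the smallest value it can give.

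Reads of this family may not have been divided cleanly between genes. In GENCODE 29 the span of IFITM2 runs over IFITM1 on the same strand, so reads of IFITM1 and IFITM2 may not have been separated. Of the 25-base stretches in the annotated transcripts of IFITM3, 28.2% also occur in those of IFITM2 and 11.0% in those of IFITM1. No source used here gives the read length. These shares, and those of the pseudogenes below, cover whole transcripts, whereas CAGE sequences capped 5' ends. They therefore do not measure how many reads were ambiguous. The table also lists IFITM3P3 and IFITM3P4, processed pseudogenes (copies of the IFITM3 transcript) that are no members and were looked at after their values had been seen. IFITM3P3 measured 22.09 and 24.21 CPM in the resistant samples, against 8.83 and 11.84 CPM in the wild type samples. IFITM3P4 measured 25.96 and 26.18 CPM in the resistant samples, against 13.10 and 15.31 CPM in the wild type samples. Both passed as higher, with log2 fold changes of 1.10 and 0.84 (limma, adjusted p = 0.000296 and 0.000285). Of their 25-base stretches 13.3% and 29.04% occur in IFITM3 transcripts, and of their 50-base stretches 0% and 4.41%. IFITM3 held 82.7% and 81.9% of the CPM summed over the gene and both pseudogenes in the resistant samples, against 84.5% and 81.5% in the wild type samples, and these shares overlapped between the groups. Summing all 3 gave a read ratio of 1.93 (exact 95% interval 1.87 to 2.00), close to that of IFITM3 alone.

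**Figure D3:**
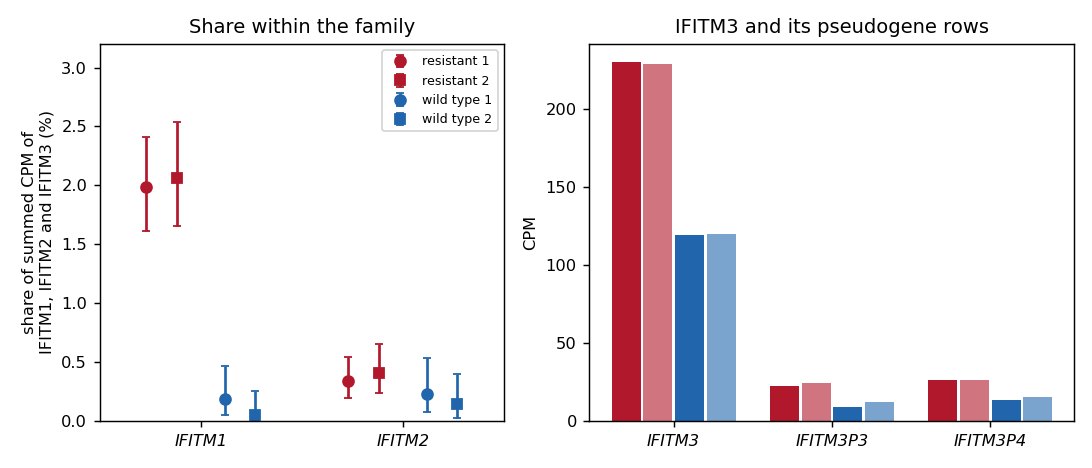
Left, share of IFITM1 and IFITM2 in the summed CPM of IFITM1, IFITM2 and IFITM3 in percent, with exact 95% intervals for counting error; right, CPM of IFITM3, IFITM3P3 and IFITM3P4 with a bar for each sample, in the order resistant 1, resistant 2, wild type 1, wild type 2. The IFITM1 share is 1.98% and 2.06% in resistant samples against 0.184% and 0.05% in wild type samples, and IFITM3 and both pseudogene rows are each higher in the resistant samples.

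The genes next to the members in gene order did not rise with them as a group. The 3 nearest genes of the table on each side of each member were taken by their order in GENCODE 29. No limit was set on distance, so some may lie far from the member. The genes taken made 18 other than members. Of these PGGHG and AC136475.3 shared all values and were counted once. AC136475.3 is annotated as antisense but lies on the same strand as PGGHG. Of 15 tested rows 1 rose and 6 fell, where 33.5% of all tested genes rose and 21.6% fell. The median log2 fold change of these rows was -0.22, beside 0.09 over all tested genes. Beside the IFITM genes the row shared by AC136475.3 and PGGHG, a glycosidase of collagen sugars, fell by 1.36 on the log2 scale (limma, adjusted p = 0.000197), measuring 3.63 and 4.33 CPM in the resistant samples, against 13.60 and 10.19 CPM in the wild type samples; its reads cannot be assigned to either gene alone. Beside BST2, MVB12A, a subunit of the ESCRT-I sorting complex, measured 29.31 and 31.46 CPM in the resistant samples, against 42.44 and 46.26 CPM in wild type cells; it fell (limma, adjusted p = 0.0011). ANO8 and SLC27A1, a fatty acid transporter, also lie beside BST2 and fell by 0.58 and 0.90 (limma, adjusted p = 0.0040 and 0.0029). BISPR, a noncoding RNA transcribed away from the BST2 start on the opposite strand, had 6 and 4 reads in the resistant samples, against 4 and 3 reads in the wild type samples, or 1.33 times as many for depth (exact 95% interval 0.458 to 4.13). Near RSAD2 in gene order the single riser was ID2, an inhibitor of helix-loop-helix transcription factors, with a log2 fold change of 0.78 (limma, adjusted p = 0.000367). RNF144A, a ubiquitin ligase on the same side, fell by 0.86 (limma, adjusted p = 0.0020). RPS7, a ribosomal protein gene on the other side, fell by 0.22 (limma, adjusted p = 0.0473), a call lost in 5 of 13 alternatives, among them those without either resistant sample. In GENCODE 29 RSAD2 overlaps CMPK2, a kinase of pyrimidine nucleotides, on the opposite strand; CMPK2 was not analysed here.

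Other genes of the interferon system were read from lists set for this comparison. Of 30 tested interferon-stimulated genes other than the members, 29 rose and 1 fell, and the median log2 fold change was 1.55. That is 96.7% higher and 3.33% lower, beside 33.5% and 21.6% of all tested genes. Some genes of this list also passed the filter only through the resistant samples, which favours a call as higher. With no filter 30 rose and 1 fell. IFI6, ISG15, IFIT1, OAS1 and OAS3 had the smallest adjusted p-values by limma, the last 3 tied at 6.15e-07, with log2 fold changes of 5.37, 3.61, 3.50, 3.26 and 2.36. The gene that fell was LGALS3BP, a secreted glycoprotein named after its value was seen, at 11.42 and 11.57 CPM in the resistant samples, against 42.82 and 37.67 CPM in the wild type samples. The log2 fold changes of IFITM1, BST2 and RSAD2 lie among those of this list, and that of IFITM3 lies below its median.

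Other restriction factors moved in both directions. Of 27 tested genes 10 rose and 7 fell, and their median log2 fold change was 0.18. The shares of 37.0% higher and 25.9% lower stand beside 33.5% and 21.6% of all tested genes. GBP1, an interferon-induced GTPase of the dynamin superfamily, measured 5.14 and 4.72 CPM in the resistant samples, against 0.27 and 0.44 CPM in the wild type samples (log2 fold change 2.13, limma, adjusted p = 1.72e-05). GBP1 passed the filter only through its resistant samples, which favours a call as higher, so its call adds no support. SLFN5, a Schlafen family protein, rose by 1.18 on the log2 scale (limma, adjusted p = 5.26e-05). APOBEC3G, a cytidine deaminase that mutates retroviral DNA, measured 1.98 and 1.85 CPM in the resistant samples, against 9.87 and 8.04 CPM in wild type cells, and fell by 1.77 (limma, adjusted p = 3.28e-05). SERINC5, a membrane protein that lowers retroviral infectivity, fell by 1.68 (limma, adjusted p = 8.03e-05). Without resistant replicate 1 the list had 6 risers and 7 fallers. The ISRE core was present in a RefSeq window of 19 of 26 matched interferon-stimulated genes of the first list of 8 of 19 matched restriction factors, and of 1 of 13 matched genes of the signalling chain described next.

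In the signalling chain from receptor to transcription factor, 8 of 19 tested genes rose and 4 fell; their median log2 fold change was 0.09, as over all tested genes. The shares of 42.1% higher and 21.1% lower stand beside 33.5% and 21.6% of all tested genes. IRF9, the DNA-binding subunit of the ISRE-binding complex, measured 38.13 and 30.95 CPM in the resistant samples, against 10.47 and 8.54 CPM in wild type cells, and rose by 1.76 on the log2 scale (limma, adjusted p = 2.39e-05). The feedback inhibitors USP18 and SOCS3 rose by 1.65 and 1.22 (limma, adjusted p = 3.74e-05 and 7.88e-05). USP18 is also counted among the interferon-stimulated genes. The 9 interferon genes of the list were not analysed here. When resistant replicate 1 was left out 0 genes of this list fell, and when resistant replicate 2 was left out 1 fell.

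Of 13 tested genes for partners and modifiers of the members 4 rose and 0 fell; the list's median log2 fold change was 0.12. The share of 30.8% higher is near the 33.5% of all tested genes. CIAO2B, a factor of cytosolic iron-sulfur cluster insertion, had a log2 fold change of 0.33 (limma, adjusted p = 0.0033), and TRIM21, an antibody-binding ubiquitin ligase, 0.44 (limma, adjusted p = 0.0069). TRIM21 is also counted among the restriction factors. VAPA, an endoplasmic reticulum protein that binds IFITM3, had a log2 fold change of 0.30 (limma, adjusted p = 0.0102), and ZDHHC20, a palmitoyltransferase that modifies IFITM3, 0.37 (limma, adjusted p = 0.0139). Without resistant replicate 1, and without resistant replicate 2, a single gene of the list passed. Of 10 tested dynamin superfamily genes 2 rose and 0 fell (median log2 fold change 0.0041). That is 20% higher and 0% lower, beside 33.5% and 21.6% of all tested genes. The risers were the endocytic dynamin DNM2 and GBP1, which is also counted among the restriction factors and passed the filter only through its resistant samples. DNM2 measured 97.12 and 92.24 CPM in the resistant samples, against 50.99 and 43.06 CPM in the wild type samples. GBP3 and the mitochondrial fusion factor MFN1 had log2 fold changes of 0.41 and -0.25 and did not pass (limma, adjusted p = 0.0522 and 0.0692), but GBP3 passed in 5 of 12 alternatives and MFN1 in 4 of 13. Of 3 tested genes of the CD225 family, to which the IFITM proteins belong, TMEM265 fell, or 33.3%, beside 21.6% of all tested genes. TMEM265 measured 0.42 and 0.34 CPM in the resistant samples, against 4.88 and 6.77 CPM in the wild type samples (limma, adjusted p = 2.25e-05). It passed the filter only through its wild type samples, which favours a call as lower, so its call and that share add no support.

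**Figure D4:**
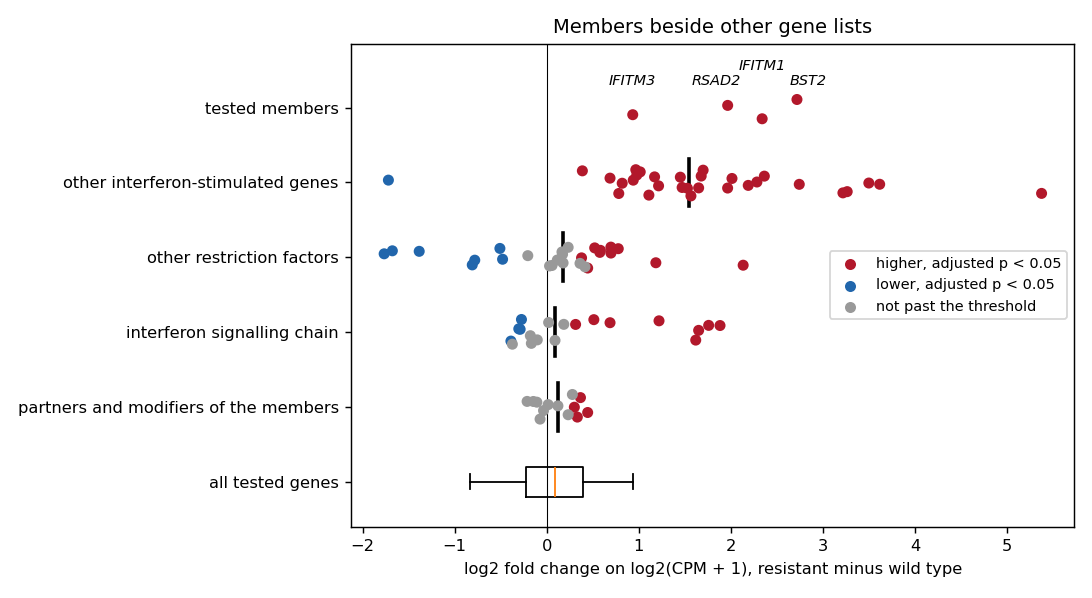
Log2 fold change on log2(CPM + 1), resistant minus wild type, of the 4 tested members and of the tested genes of 4 lists, coloured by the limma call, with a bar at each list's median; the box for all 12587 tested genes shows the quartiles and median, with whiskers at the 5th and 95th percentiles. The members lie between 0.93 and 2.72, the other interferon-stimulated genes have a median of 1.55, and the other lists have medians of 0.09 to 0.18.

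For each tested member the tested genes most like it were taken by the Euclidean distance between their 4 centred values of log2(CPM + 1). For IFITM1 these were LFNG and ZNF804A (distances 0.07 and 0.13), for IFITM3 MKI67 and SSX2IP (0.02 and 0.04), for BST2 PTN and SLC7A11 (0.07 and 0.10) and for RSAD2 ABCC3 and LRP1B (0.08 and 0.09). None of the 8 is on the interferon lists used here, and over 4 samples in 2 groups the distance mainly compares the size of the change.

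Of the 14 urothelial markers listed the table holds 4. KRT18 measured 90.47 and 85.50 CPM in the resistant samples, against 306.45 and 309.15 CPM in wild type cells. KRT8 measured 43.51 and 43.2 CPM in the resistant samples, against 95.3 and 87.45 CPM in the wild type samples. KRT7 went the other way, at 10.05 and 10.0 CPM in the resistant samples, against 5.32 and 5.56 CPM in the wild type samples. TP63, a basal marker, had 0 reads in both resistant samples, against 0.49 and 0.99 CPM in the wild type samples. Of the 4 mesenchymal markers, VIM was the most abundant, at 1432 and 1343 CPM in the resistant samples, against 1365 and 1336 CPM in the wild type samples. CDH2 measured 44.41 and 39.77 CPM in the resistant samples, against 20.12 and 18.5 CPM in the wild type samples. ZEB1 measured 17.89 and 16.63 CPM in the resistant samples, against 34.43 and 34.91 CPM in the wild type samples. FN1 measured 0.52 and 0.39 CPM in the resistant samples, against 1.04 and 1.71 CPM in the wild type samples. BST2 is also a marker of plasmacytoid dendritic cells, and of 5 markers of that cell the table holds TCF4 alone, at 0.61 and 0.96 CPM in the resistant samples, against 4.28 and 4.96 CPM in the wild type samples. Of 10 blood cell markers it holds 2, CD68 and CCL5, whose sum was 28.7 and 30.7 CPM in the resistant samples, against 72.7 and 53.2 CPM in the wild type samples. The 3 fibroblast markers held summed to 2.21 and 2.58 CPM in the resistant samples, against 0.87 and 0.94 CPM in wild type cells; the 5 endothelial markers listed were not analysed here. Their part in the results was not tested.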

How the data were processed

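CAGE libraries of 2 cisplatin-resistant and 2 wild type UM-UC-3 samples were compared, grouped by their titles. Per the labels' protocols, random-primed cDNA was cap-trapped and ligated to adaptors at both ends. The authors deposited CPM values per gene, with each column scaled to the same total over the 13743 genes listed. Per the submitters' processing notes BWA 0.5.9 was among the tools, and hg19 and mm9 appear as builds with no role stated. How reads were assigned to genes, with which annotation and strand setting, no source used here gives.

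In each column the values sat on multiples of a fixed step, with a largest deviation of 0.0052 CPM, and the nearest whole multiples gave the numbers of reads, their ratios and their intervals. In resistant replicate 1, where rounding is coarsest against the step, 94.7% of values lay within 0.1 step. That was too few to accept the column for a count model, so no count test was run. The nearest whole multiples of this column were still used for the ratios and intervals. Genes averaging at least 1 CPM were tested with limma 3.58.1 in R 4.3.3 (lmFit, eBayes with trend) on log2(CPM + 1), unpaired, with Benjamini-Hochberg adjustment over 12587 genes. Intervals are exact (Clopper-Pearson, scipy 1.17.1) at 95% and, like the floor of 3 reads, cover counting error only. Members, lists and tests were chosen with earlier results of these data known. The genes named were the members, up to 4 genes per list with the smallest adjusted p, genes neighbouring the members and the 2 nearest genes by profile; others are marked in the text. Some results for a gene that this rule takes are not reported here. GENCODE 29 (matching 99.1% of identifiers) gave gene order and overlaps, and RefSeq (GRCh38.p14) gave promoter sequence. No coordinates of the study's own build are given.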

Additional observations from a re-analysis of the deposited data

How the results depend on the processing

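IFITM3 passed in all 14 alternatives. IFITM1, BST2 and RSAD2 passed in the 12 that tested them, which adds no support, since they entered through their high resistant samples. The highest adjusted p-values of limma were 0.00087, 0.0009, 0.0015 and 0.0019 for IFITM1, BST2, RSAD2 and IFITM3 in this order, all from fits without a resistant sample, in which the lone sample is assumed to vary like the wild type group. With every gene tested IFITM2 also passed, with a log2 fold change of 0.62. At a mean of at least 5 CPM IFITM3 was the single member tested and called (1). Leaving out each sample in turn gave ratios of mean CPM of 21.6 to 79.2 for IFITM1, 15.2 to 67.7 for BST2, 28.3 to 58.2 for RSAD2 (no ratio where wild type replicate 1 alone stood at 0), 3.26 to 5.18 for IFITM2 and 1.91 to 1.92 for IFITM3. The ratio of IFITM3 was 1.80 under median-ratio scaling and 1.93 with its pseudogene rows added, an alternative chosen after seeing the data.

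Without either resistant sample fewer genes passed. Over the 4 omissions of a sample the counts ran from 4279 to 6790 in all, from 2556 to 4316 higher and from 1636 to 2787 lower. For the lists the same omissions gave 6 to 11 higher restriction factors, 0 to 3 lower signalling genes, 1 to 5 higher and 0 to 1 lower partners, and 0 to 1 lower dynamin superfamily genes. Median-ratio scaling and quantile normalization each gave 2 lower partners and 3 lower dynamin genes. GBP3 passed as higher, making 3 dynamin genes, with either smaller pseudocount, no filter, quantile normalization or no trend, and MFN1 passed as lower under both scalings, the replicate block and without wild type replicate 1. With no filter 1 dynamin gene was lower, and at a mean of at least 5 CPM 1 was higher and 0 CD225 genes were lower. CIAO2B lost its call without resistant replicate 2, TRIM21 without resistant replicate 1, VAPA without either, and ZDHHC20 also under quantile normalization. The cause was not tested.

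The deviations of same-numbered samples from their group means correlated at -0.08. This single value cannot tell whether same-numbered samples shared a culture or a batch, and the labels do not say. With the replicate block 7098 genes passed, the 4 member calls held, and 1 partner and 1 dynamin gene and 2 CD225 genes were lower. Depth limits the wild type levels of IFITM1, IFITM2, BST2 and RSAD2, which rest on 11 reads or fewer each.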
